A study of Anguilla anguilla with 45 samples.

Results

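The contigs described here are 100 assembled transcripts of the European eel, Anguilla anguilla. Averaged over caudal fin and liver, these contigs had a log2 ratio to a common reference RNA above 0. They were chosen by a rule on measured values. F is a contig's mean log2 ratio over the 10 fin arrays of laboratory control eels and wild Certes eels, and L is its mean over the 10 liver arrays of control and cadmium-exposed eels. A contig with at least 5 values in each set became a member where F minus L lay between -2 and 2 and the mean of F and L was at least 0.75. Of 992 contigs on the arrays 817 had enough values, and 100 of these (12.2%) were members, while 21 others reached the level but lay outside the bounds on F minus L. Just inside the threshold were contig_25732, contig_15477 and contig_21579, with means of F and L of 0.755, 0.767 and 0.787. Just outside it were contig_35572 and contig_39463, both at 0.745, and contig_2102 at 0.742. F and L are therefore a description of how the members were chosen. What could be tested is how these contigs behaved on the 25 fin arrays of 5 groups that the rule did not use. Differences between groups that did not enter the rule directly were tested as well.

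In a common-reference design every sample is hybridised beside the same pooled RNA, so a ratio above 0 says that a spot was brighter in the sample than in that pool, relative to the other spots of the array. Liver is the main organ of plasma protein synthesis, lipid handling and detoxification in fish, while the caudal fin is skin, connective tissue, bone rays and blood, and can be clipped without killing the animal. Cadmium (Cd) is a metal that fish take up through gills and gut and bind in metallothionein, and polychlorinated biphenyls (PCBs) are persistent organic compounds of which some activate the aryl hydrocarbon receptor.

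The study set the transcripts of wild eels beside those of laboratory eels with known exposure, in 45 two-colour arrays with 5 arrays in each of 9 groups. The 7 fin groups were wild eels of Certes, the Gironde and the Garonne, laboratory control eels, laboratory eels fed PCBs at 50 or at 300 ng/g (a basis written PS, unexplained in the labels), and laboratory eels kept with Cd at 4 µg/L of water. The 2 liver groups were laboratory control eels and Cd-exposed eels. Samples carried Cy3 and the reference Cy5 on every array, and the reference was a pool of 30 wild Certes eels that the labels give as liver RNA, so dye and sample cannot be told apart. Fewer cells of a type and less RNA per cell cannot be told apart in such bulk samples. Each array is a separately numbered fish within its tissue, ages are not given in the labels used here, and what the wild eels had been exposed to is not given either.

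The deposited values had a median of 0 on each array, and 389 to 988 contigs had a value on an array. A level above the reference is therefore a level above the median contig of the same array. No file says which channel is the numerator. The labelled dyes make sample over reference the likely reading, and all signs would swap if it were the opposite. Of 990 pairs of arrays 9 correlated below -0.3 across contigs, the lowest at -0.530 between fish 26 of the 50 ng/g group and fish 33 of the 300 ng/g group, and 7 of the 9 pairs held fish 26. The gene table used here held 0 of the contig numbers, so contigs are named by number, tissue labels could not be checked against marker genes, and no list of genes could be used.

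The members were moderate in level rather than extreme. Their F lay between 0.04 and 3.22 (median 1.21), and their L between -0.05 and 3.61 (median 1.13). The mean of F and L had a median of 1.08, was at least 1 in 60 members and at least 2 in 2. Both F and L reached 0.75 in 43 members, while 12 had an F below 0.5 and another 12 an L below 0.5, 1 of these below 0. So for 24 members the place in the set rests mostly on 1 of the 2 tissues. F minus L lay from -1.52 to 1.90, with 51 members higher in fin and 49 higher in liver.

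**Figure D1:**
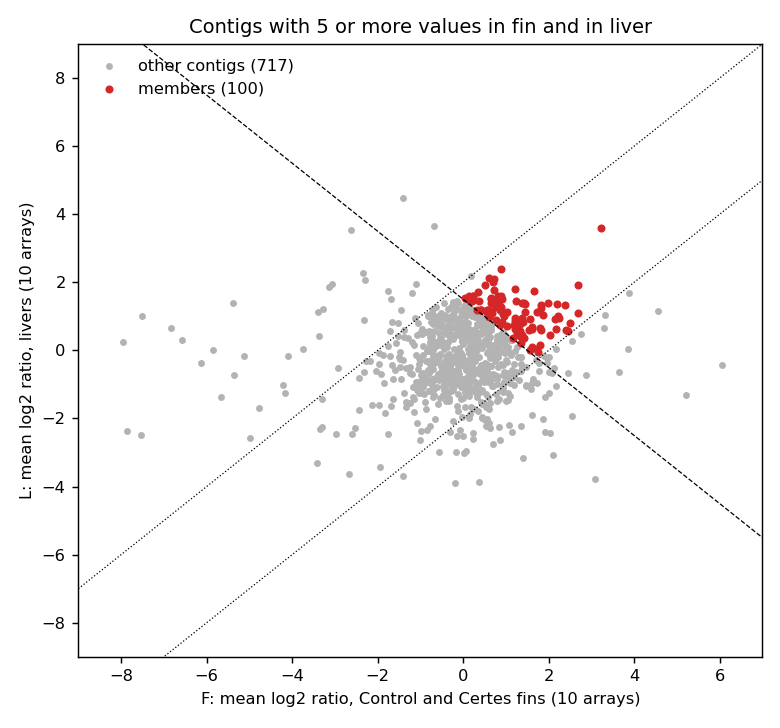
Mean log2 ratio in the 10 Control and Certes fins (F, horizontal) against the mean in the 10 livers (L, vertical) for the 817 contigs with at least 5 values in each, members in red and the other 717 in grey. The dashed line marks a mean of F and L of 0.75 and the dotted lines mark F minus L of -2 and 2, and the red points fill the corner above the dashed line between the dotted ones.

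Values are given next for the 6 members with the highest mean of F and L. Only members with a value on at least 40 of the 45 arrays were ranked. Chosen for level and for few missing values, these 6 do not stand for the whole set. contig_9484 lay above 0 on all 42 arrays that held a value for it, which include arrays that chose it. Its log2 ratios in the Garonne fins were 4.16, 2.71, 2.92, 2.69 and 2.18, barely above all 5 Certes fins, of which the highest was 2.17. The difference of 1.75 ± 1.02 (SE, limma adjusted p = 0.391) between these groups did not pass. In the 300 ng/g fins its log2 ratios were 3.46, 2.98, 10.25, 3.44 and 3.01, of which the value of fish 33 stands far above the other 4. The 50 ng/g fins held 0.66, 1.00, 0.54, 3.56 and 0.07, so fish 28 was at the level of the 300 ng/g group and the other 4 were below it.

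contig_12603 reached 5.16, 5.73 and 1.42 on the 3 Garonne arrays that held it and 6.87, 2.17, 2.60 and 1.79 on 4 arrays of the 300 ng/g group. On 4 Gironde arrays it lay at -1.16, -0.84, -1.88 and -1.03, all below 0 and below every value of the other groups. contig_17922 had the same kind of split. It ran from 1.23 to 7.02 on the 5 Garonne arrays, while its 4 Gironde values were -0.36, -0.90, -0.91 and -1.92. Its 50 ng/g values were 1.37, -3.18, -0.09 and -0.46, below 0 on 3 arrays of 4. contig_18978 ran from 3.07 to 5.94 on 3 Garonne arrays and from -2.73 to 1.49 on the 5 Gironde arrays, which did not overlap.

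The other 3 of the 6 did not show that split. contig_9484 held 7.43 and 2.68 on its 2 Gironde arrays, the first above all its Garonne values, and its difference of 2.13 ± 1.35 (SE, limma adjusted p = 0.205) did not pass. contig_16088 had Gironde values of 1.13, 2.65 and 2.42 and Garonne values from 0.18 to 2.36, which overlapped, and its 50 ng/g values ran from -0.46 to 0.73. contig_10692 was higher in liver than in most fins, at 1.92 to 2.33 in control livers and 2.08 to 3.39 in Cd livers. Its fin values were spread widely within groups, from -1.51 to 1.78 at 50 ng/g and from -0.99 to 3.11 in the Gironde, so that no order of the fin groups could be read from it.

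**Figure D2:**
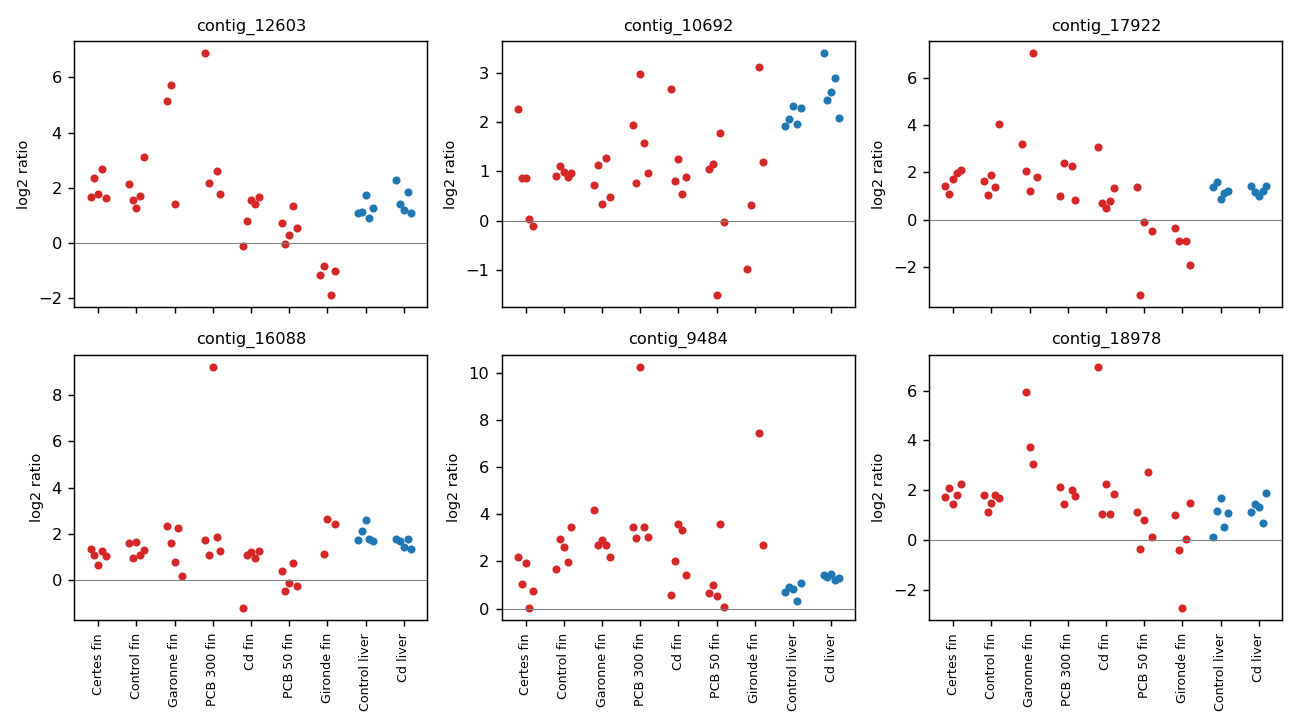
Log2 ratio of the 6 members on every array that holds a value, by group along the horizontal axis, fins in red and livers in blue, each panel with its own vertical scale. The Gironde points of contig_12603 and contig_17922 all lie below 0, and those of contig_16088 and contig_9484 all lie above it.

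The members higher in fin and those higher in liver differed in more than the tissue that the rule compared. The 51 members with F above L had a median F of 1.57 and a median L of 0.74, and a median of 35 values out of 45. The 49 with L above F had a median F of 0.69, a median L of 1.44 and a median of 42 values. Missing values fell mostly in the first set. In the Garonne group 24 of the 51 had no value on any array, against 6 of the 49.

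The level of the set on each array was its median log2 ratio over the members with a value. On the rule's own arrays this was 0.84 ± 0.12 in Certes fins (SD, n = 5), 1.09 ± 0.34 in control fins, 1.09 ± 0.28 in control livers and 1.20 ± 0.23 in Cd livers. Among the groups outside the rule, the 5 Garonne arrays lay at 1.25, 1.39, 1.18, 0.98 and 1.18, a mean of 1.20 ± 0.15. The 300 ng/g arrays lay at 1.42, 1.11, 2.51, 1.29 and 0.78, a mean of 1.42 ± 0.65. All 10 arrays of these groups were above 0, and the array at 2.51, fish 33, held values for 33 members only. Without it the 300 ng/g mean was 1.15 ± 0.28.

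The other 3 fin groups were lower. The Cd arrays lay at -0.25, 0.60, 0.57, 0.51 and 0.78, a mean of 0.44 ± 0.40, and fish 45, the array at -0.25, stood apart from the other 4, whose mean was 0.62 ± 0.11. The 50 ng/g arrays lay at 0.31, -0.08, 0.56, 1.36 and 0.09, a mean of 0.45 ± 0.56, which became 0.22 ± 0.28 without fish 28. The Gironde arrays lay at -0.35, -0.13, -0.30, -0.25 and 0.65, a mean of -0.08 ± 0.41, and at -0.26 ± 0.09 without eel A315. The 5 Garonne arrays all lay above the 5 Gironde arrays, while the 300 ng/g and 50 ng/g arrays overlapped. In the order of the group means, from Gironde over Cd, 50 ng/g, Certes, the control fins and livers, Garonne and the Cd livers to 300 ng/g, each group overlapped its neighbour. The median of the 717 other contigs stayed between -0.47 and 0.42 on all 45 arrays. The median of 0 over all contigs of each array largely sets this, and likewise the share of the other contigs above 0 given below.

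**Figure D3:**
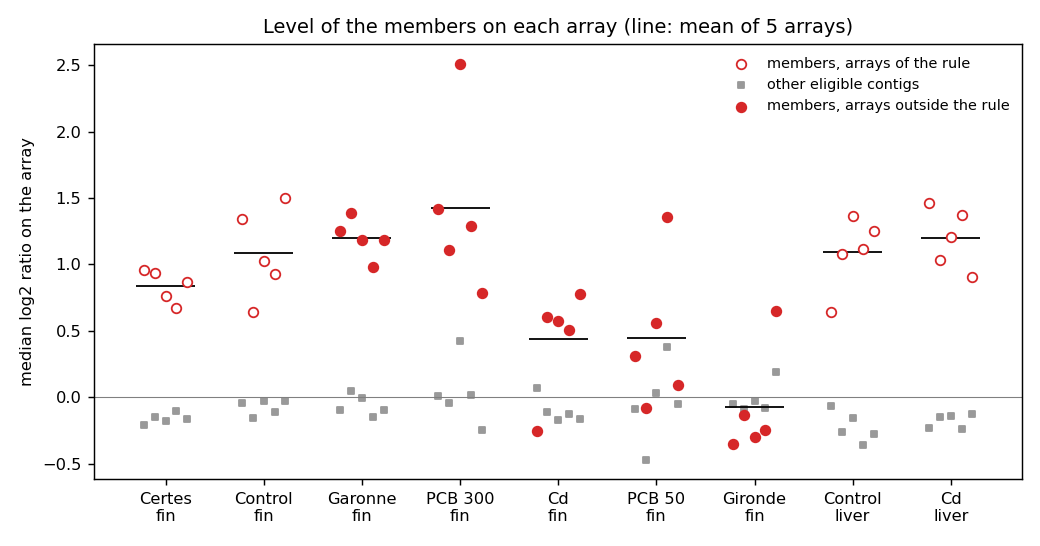
Median log2 ratio of the members (circles, filled for arrays outside the rule) and of the other eligible contigs (grey squares) on each of the 45 arrays by group, with a line at the mean of the 5 member medians. Garonne and 300 ng/g fins lie between 0.78 and 2.51, whereas 4 of 5 Gironde arrays lie below 0.

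The share of members above 0 on an array also differed by group. It ran from 84.4% to 95.1% over the Garonne arrays, from 91.9% to 97.6% at 300 ng/g, from 42.2% to 97.0% in the Cd group, from 46.7% to 70.9% at 50 ng/g and from 32.9% to 57.3% in the Gironde, against 35.8% to 59.9% for the other contigs over all arrays. Values were present for 55.8% of member spots in the Garonne group and 56.0% of those of the other contigs. At 300 ng/g the shares present were 74.2% and 78.8%, and in the Gironde 72.2% and 78.7%. The Garonne fins, with the fewest values, were high, and the Cd fins, with 95.4% present, were lower. Within groups the order varied. At 300 ng/g fish 33 held 33 members with a median of 2.51, and fish 35 held 99 with 0.78. In Certes fins eel A207 held 82 members with a median of 0.67, and eel A201 held 99 with 0.96. Whether the level depends on which values are present was not tested.

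**Figure D4:**
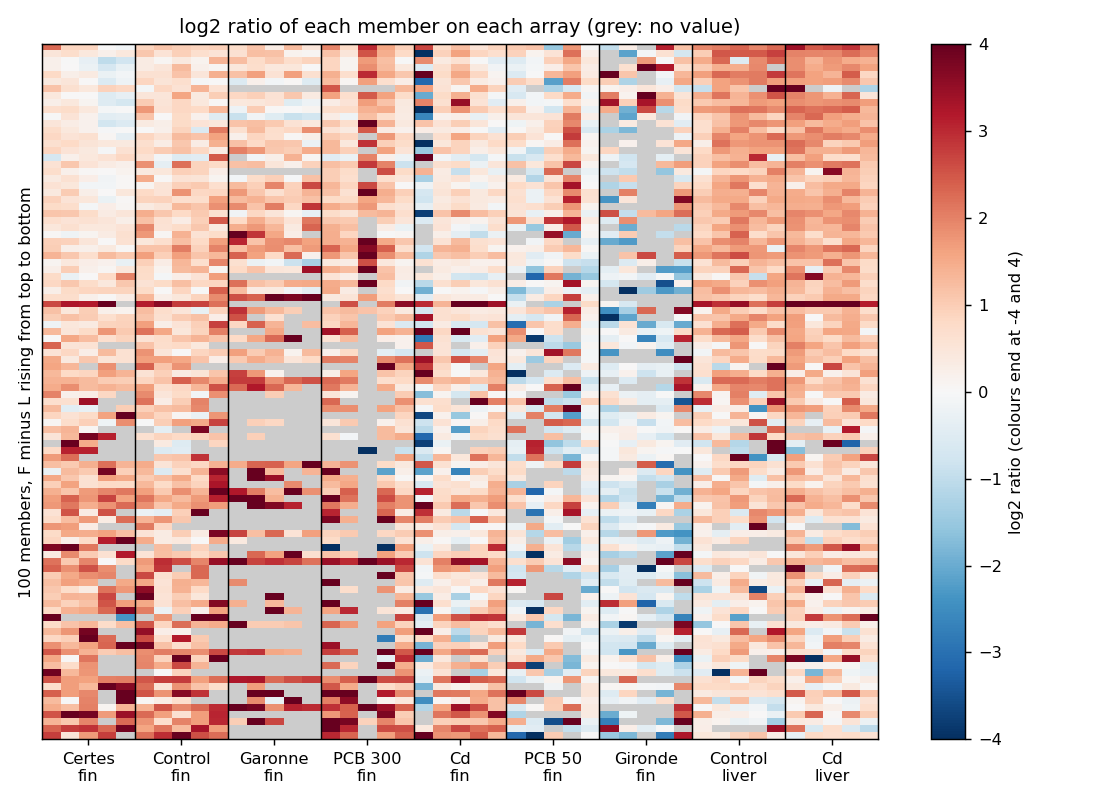
Log2 ratio of the 100 members (rows, ordered by F minus L) on the 45 arrays (columns, by group), red above 0, blue below 0, grey where there is no value. Grey fills most of the lower Garonne rows, where F exceeds L, and blue is spread over the Gironde and 50 ng/g columns and the first Cd fin column, fish 45.

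Each held-out fin group was then tested contig by contig against the reference with limma, as the group mean against 0, with p-values adjusted over all contigs tested. These 5 tests are not independent of each other or of F and L in 1 respect: every array shares the reference pool, the dye orientation and the spots. A contig needed 2 values in the group, which 62 members had in the Garonne group, 93 in the Gironde, 90 at 300 ng/g and all 100 at 50 ng/g and in the Cd group. In the Garonne fins 35 of 62 members were higher than the reference and 0 were lower, against a background of 21.8% of 563 contigs higher and 24.5% lower. Member means lay between -0.62 and 5.42, and their median was 1.46, against 0.18 over all contigs tested, and 59 of 62 were above 0. contig_18826 held 7.39 and 3.46 on its 2 Garonne arrays, the second close to the highest value of its other fin groups, 3.06. Its mean of 5.42 ± 0.65 (SE from the spread shared by all fin groups) had a limma adjusted p of 3.60e-07. contig_36240 held 3.95 and 6.52, of which the first lay within the range of its other fin values, a mean of 5.23 ± 0.99 with a limma adjusted p of 0.00017. Neither could be tested without eel A359 or eel A360. Recentring each array on those contigs that no fin array missed moved the median of all contigs in this group from 0.18 to 0.85, gave 53 members higher and 0 lower, and turned the calls over all contigs from 123 higher and 138 lower to 228 and 94. Quantile normalization gave 23 members higher and 0 lower, and 71 contigs higher and 70 lower. The members' median lay 1.28 above that of all contigs as deposited, 1.29 after recentring and 1.06 after quantile normalization. Recentring shifts all contigs of an array by the same amount, so it could hardly move this gap and is no check of it.

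The 300 ng/g fins also had more members higher than lower, in a different set of members tested. Of 90 members 39 were higher than the reference and 2 were lower, where 10.6% of 906 contigs were higher and 15.5% lower. Member means lay between -2.86 and 4.63, and their median was 1.26, against -0.04 over all contigs. contig_9484, described above, had a mean of 4.63 ± 0.72 (SE, limma adjusted p = 2.55e-05). contig_708 held 6.50 and 2.03, a mean of 4.26 ± 1.14 with a limma adjusted p of 0.0079, and could not be tested without fish 31 or 35. The 2 lower members were contig_1177, with -5.04, -5.17 and 1.63, and contig_17208, with -4.63 and -0.88. Both were high in wild Certes fins, where contig_1177 held 3.74, 5.48 and 2.10 and contig_17208 held 0.79, 3.09 and 3.08, all above 0. At 300 ng/g fish 35 was above 0 for contig_1177 and the other values of both contigs were below it. In laboratory control fins, with 2 values each, the means were lower than in Certes fins, at 1.08 for contig_1177 and -0.50 for contig_17208. Against those controls neither contig passed (limma adjusted p = 0.785 and 0.998).

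Their means at 300 ng/g were -2.86 ± 0.91 (SE, limma adjusted p = 0.025) and -2.76 ± 0.85 (limma adjusted p = 0.022). The call of contig_1177 ended without fish 31, at -1.77, and without fish 34, at -1.70, and the mean was -5.11 without fish 35. Recentring also ended it, at -2.63. The call of contig_17208 ended under recentring at -2.76, under quantile normalization at -1.61 and with array weights at -1.71, and it could not be tested without fish 33 or 35. The count of members called, 41, was 23 without fish 31, 25 without fish 33 and 26 without fish 34. Over all contigs the split was 125 higher and 98 lower after recentring and 74 and 60 after quantile normalization, against 96 and 140 as deposited. In a fit of only the 5 arrays of this group 15 members passed, all higher, and none of the 4 named here was among them.

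In the Cd fins 14 of 100 members were higher than the reference and 0 lower, against 4.96% of 988 contigs higher and 5.26% lower. The median of member means was 0.45 and that of all contigs 0.08, and 80 member means were above 0. contig_21940, the member with the highest mean of F and L, held 2.97, 1.36, 4.55, 4.52 and 3.38. Its mean was 3.36 ± 0.47 (SE, limma adjusted p = 3.78e-05), and all 5 arrays were above 0. contig_28701 held 4.31, 0.83, 7.01, 0.60 and 0.50, so 2 arrays carried its mean of 2.65 ± 0.60 (limma adjusted p = 0.0039). Without fish 48 it was at 1.56 and no longer passed, and with array weights it was at 1.39 and passed. The count of 14 was 6 without fish 48 and 8 without fish 49, and 0 in a fit of only these 5 arrays, which called 3 contigs in all.

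At 50 ng/g 1 of 100 members was higher and 0 lower, against 0.305% of 984 contigs higher and 0.407% lower. At an unadjusted p under 0.05 there were 15 members and 96 contigs. The member called was contig_1847, with 1.73, 0.62, 2.85, 3.21 and 0.35, all above 0. Its mean was 1.75 ± 0.38 (SE, limma adjusted p = 0.020). The call ended with recentring at 1.83, with array weights at 1.15, with the sign of fish 26 turned at 1.50, and without fish 25, 27 or 28, at 1.76, 1.48 and 1.39. Without fish 29 the count of members was 4, and without fish 25 or 28 it was 0. After recentring 0 contigs were higher and 2 lower.

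In the Gironde fins 5 of 93 members were higher and 3 lower, close to the background of 5.91% of 947 contigs higher and 2.96% lower. The median of member means was -0.14, against -0.04 over all contigs, and 39 of 93 were above 0. contig_4248 held 0.63, 5.36, 3.20 and 0.65, a mean of 2.46 ± 0.47 (SE, limma adjusted p = 0.00045). Its largest value came from eel A306. Without that eel the mean was 1.49, and with the sign of that array turned it was -0.22. contig_9484 held 7.43 and 2.68, a mean of 5.06 ± 1.14 (limma adjusted p = 0.0024), and could not be tested without eel A310 or A315.

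In the lower members named here too, much of the mean came from a single array, though not every call depended on it. The remaining lower member had close values on its 2 arrays, with a mean of -2.41 and an SD of 0.08. contig_7695 held -11.81, -1.42, -2.30 and -1.91, all below 0, while its other fin values lay between -1.91 and 2.39. Its mean was -4.36 ± 0.86 (SE, limma adjusted p = 0.00066), and -1.88 without eel A305, which still passed. contig_19223 held -6.09, -2.10 and -0.02, a mean of -2.74 ± 0.70 (limma adjusted p = 0.0092), and without eel A302 it was at -1.06 and did not pass. Quantile normalization gave 7 members higher and 8 lower. Over all contigs the split moved from 56 higher and 28 lower to 52 and 51 after recentring and 59 and 57 after quantile normalization. A fit of only the 5 Gironde arrays called 0 contigs.

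Within the members, group means followed F to unequal degrees. Across members with at least 3 values in the group, Pearson's correlation with F was 0.752 in the Garonne fins (n = 56 members), 0.533 in the Cd fins (n = 99), 0.429 at 300 ng/g (n = 78), -0.121 at 50 ng/g (n = 92) and -0.157 in the Gironde (n = 82). In the Garonne fins the correlation with L was -0.546. In the other groups, in the same order, it was 0.104, -0.172, 0.164 and 0.154. The members are not independent replicates, the points share the reference channel and the spots, and the rule limits the range of F and L, so these values only describe the arrays. Among the members with F above L the median of group means was 2.75 in the Garonne (20 members), 1.62 at 300 ng/g, 0.53 in the Cd group, 0.18 at 50 ng/g and -0.18 in the Gironde. Among those with L above F the same medians were 1.12, 1.10, 0.31, 0.32 and 0.05.

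Gironde and Garonne are groups of wild eels of which neither entered the rule, so their difference could be tested. Of 55 members with 2 values in each group 19 were lower in Gironde fins and 2 were higher. Over 526 contigs 18.1% were lower and 27.2% higher, so as deposited the members' balance ran opposite to that over all contigs, which recentring turned to 92 higher and 194 lower. The median member difference was -1.27, against -0.15 over all contigs, and 12 of 55 differences were above 0. The members with F above L had a median difference of -2.78 (18 tested, 7 lower, 0 higher), and those with L above F -0.71 (37 tested, 12 lower, 2 higher). contig_18826 held 0.10, 0.08, -0.96 and -0.80 in Gironde fins, below the 7.39 and 3.46 of the Garonne fins. The difference was -5.82 ± 0.80 (SE, limma adjusted p = 9.39e-06). contig_36240 held -0.51, 0.85 and -1.86 against 3.95 and 6.52, a difference of -5.74 ± 1.28 (limma adjusted p = 0.0011). The groups did not overlap in either contig, and neither could be tested without Garonne eel A359 or A360.

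The 2 members higher in Gironde fins were chosen from the positive side by the same rule. contig_5034 held 3.35, 0.95, 3.31, 1.82 and 0.77 in Gironde fins and 0.41, 0.47, 0.56, -0.48 and -0.21 in Garonne fins, with no overlap. The difference was 1.89 ± 0.56 (SE, limma adjusted p = 0.0072). contig_4248 held 0.46, 0.69, 0.41, 0.45 and 0.02 in Garonne fins, which overlapped the low Gironde values, and differed by 2.06 ± 0.63 (limma adjusted p = 0.0091). Recentring ended both calls, at 0.69 and 0.93, and turning the sign of eel A306 gave 0.56 and -0.62. Without eel A306 contig_4248 was at 1.09 and did not pass, nor did it in a fit of only the arrays compared (limma adjusted p = 0.102). Recentring moved the median difference of all contigs from -0.15 to -1.20 and that of the members from -1.27 to -2.44, and gave 30 members lower and 0 higher. Relative to all contigs the members' median was -1.12 as deposited, -1.24 after recentring, which could hardly move it, and -1.31 after quantile normalization. The split of all contigs went from 143 higher and 95 lower to 92 and 194 after recentring and to 107 of each after quantile normalization. With at least 4 values required in each group, 6 members were lower and 2 higher.

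The 2 PCB doses could be compared in the same way. At 300 ng/g 18 of 90 members were higher than at 50 ng/g and 0 were lower, while 5.22% of 900 contigs were higher and 8.33% lower. The median member difference was 0.96, against -0.10 over all contigs, and 82 of 90 were above 0. Of the members with F above L 10 of 42 were higher, with a median difference of 1.56, and of those with L above F 8 of 48, with a median of 0.66. contig_8521 held 3.02, 2.33, 1.64 and 2.37 at 300 ng/g and -3.15, -5.44, 1.01 and 0.02 at 50 ng/g. The groups did not overlap, the 50 ng/g values were far more spread, and the difference was 4.23 ± 1.19 (SE, limma adjusted p = 0.018). contig_708 held 6.50 and 2.03 against -0.51, -0.64 and -0.41, a difference of 4.78 ± 1.47 (limma adjusted p = 0.030).

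Both calls rested on few arrays. That of contig_8521 ended without fish 25, at 3.81, and without fish 26, at 3.05, and was at 1.51 with the sign of fish 26 turned. That of contig_708 ended on recentring, at 4.82, without fish 25, 26 or 29, at 4.79, 4.72 and 4.84, and with the sign of fish 26 turned, at 4.36, and it could not be tested without fish 31 or 35. The count of 18 was 10 without fish 26 of the lower dose and 11 without fish 31 of the higher, 12 with the sign of fish 26 turned, and 3 in a fit of only these 10 arrays, which also ended both named calls. Over all contigs the split went from 47 higher and 75 lower to 51 and 29 after quantile normalization. The members' median lay 1.06 above that of all contigs as deposited, 1.14 after recentring, which could hardly move it, and 0.96 after quantile normalization.

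These comparisons set different arrays against each other, with the spread per contig shared, and 55 members were tested in both. Of these 19 were lower in Gironde than in Garonne fins and 6 were higher at 300 than at 50 ng/g. The 2 that passed in both are 10.5% of the first list, 33.3% of the second and 3.64% of the members tested. Over the 516 contigs tested in both, 95 were lower in Gironde fins, 20 were higher at 300 ng/g and 4 (0.775%) were called in both, 2 of these the members. With counts this small nothing is read from the overlap. In 38 of the 55 members (69.1%) the difference was below 0 in the first comparison and above 0 in the second, against 173 of the 516 contigs (33.5%). Most members lay on those sides in each comparison taken alone. Differences were above 0 in 12 of 55 members in the first and in 82 of 90 in the second. No link between the comparisons is therefore read from this share.

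**Figure D5:**
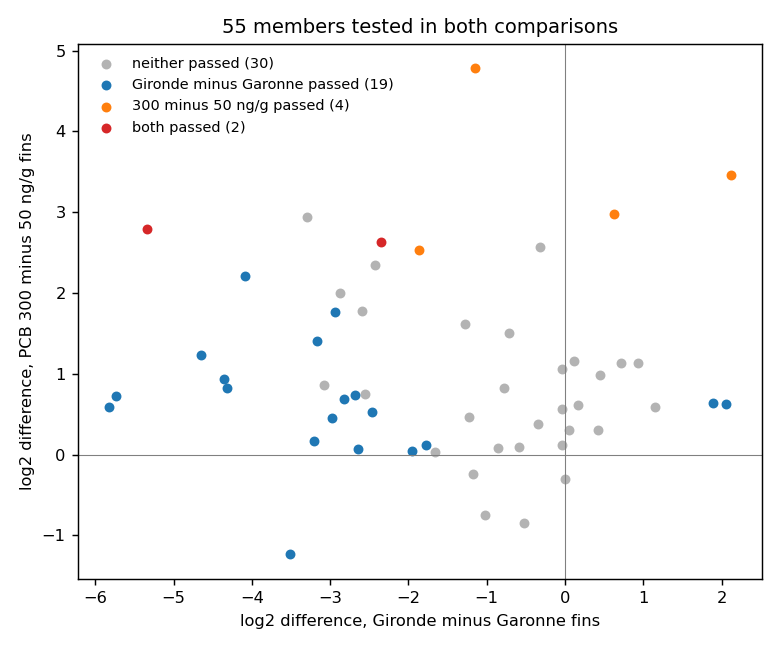
Log2 difference Gironde minus Garonne fins (horizontal) against 300 minus 50 ng/g PCB fins (vertical) for the 55 members tested in both comparisons, coloured by which test passed. Most points lie left of 0 and above 0, and 2 points passed both tests.

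Of the groups that chose the members, the differences within each tissue did not enter the rule directly. They are not fully free of it, since the groups differed in spread and in values present. The median SD of members was 0.62 in control and 0.47 in Certes fins, and 0.54 in control and 0.45 in Cd livers. Cd and control livers differed in 0 of 99 members, and 0% of 897 contigs passed in either direction. At an unadjusted p under 0.05 there were 10 members and 73 contigs. The median difference was 0.09 for the members and 0.09 for all contigs, and after recentring it was -0.04 and -0.03. contig_38405 held 0.78, 0.87, 0.67, 0.91 and 0.80 in control livers and 0.43, -0.33, -0.09, 0.40 and 0.04 in Cd livers, which did not overlap. The difference was -0.71 ± 0.22 (SE, limma adjusted p = 0.461). contig_36240 held 0.49, 0.53, 0.54, 0.68 and 0.37 in control livers and 2.46, 0.95, 1.31, 2.44 and 1.13 in Cd livers, again without overlap, a difference of 1.14 ± 0.35 (limma adjusted p = 0.461). These are the members with the smallest p, given as values only. Whether Cd acted unequally in fin and liver was fitted as an interaction, which limma passed in 0 of 99 members and 0 of 868 contigs. This fit is not free of the rule, since the control fins entered it and the Cd fins did not. For the members it is a description only.

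Control and Certes fins differed in 0 of 100 members, with 3 members at an unadjusted p under 0.05, and 0% of 876 contigs passed. The median member difference was 0.23, against 0.06 over all contigs. It turned to -0.38 on recentring, which moved the median of all contigs to -0.55. The members with the smallest p were contig_17208, which held -0.54 and -0.47 in control fins against the Certes values given above, a difference of -2.82 ± 1.10 (SE, limma adjusted p = 0.568), and contig_368, with 0.37, -0.50 and 0.85 against 4.64 and 1.50, a difference of -2.83 ± 1.25 (limma adjusted p = 0.783). With array weights contig_17208 passed, at -3.00, as the only member. Neither could be tested without some of its arrays, Control fish 6 or 7 for the first and Certes eel A203 or A205 for the second.

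The remaining comparisons have 1 arm that chose the members, so a lower level in the other arm is partly built in, and their values describe the members without support from a test. Against control fins, the 50 ng/g fins had 7 of 100 members lower and 0 higher, beside 2.96% of 947 contigs lower and 4.54% higher. contig_8521 held 2.94, 4.36, 2.59, 2.24 and 2.21 in control fins, above all 4 of its 50 ng/g values, a difference of -4.76 ± 1.13 (SE, limma adjusted p = 0.011). contig_21940 held 3.60, 2.78, 2.72, 2.21 and 3.13 against -0.27, -1.28 and 0.77, a difference of -3.15 ± 0.76 (limma adjusted p = 0.014). The first call ended without fish 26, at -3.58, and with its sign turned, at -2.04, and the second without fish 27, at -2.64. The count of 7 was 4 without control fish 7 or exposed fish 28, and 3 without control fish 8 or 10 or exposed fish 26. Over all contigs quantile normalization turned 43 higher and 28 lower into 42 and 52.

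At 300 ng/g 0 of 90 members differed from control fins and 0% of 882 contigs passed, with 5 members and 39 contigs at an unadjusted p under 0.05. The median member difference was 0.25, against 0.10 over all contigs, and it lay 0.08 below that of all contigs after quantile normalization. contig_1177 held 1.23 and 0.92 in control fins against the 300 ng/g values above, a difference of -3.94 ± 1.44 (SE, limma adjusted p = 0.785). It passed without fish 35, at -6.18, and with array weights, at -5.04. contig_10216 held 0.67, 3.19, 1.05 and 2.61 in control fins and -2.79 and 0.68 at 300 ng/g, a difference of -2.93 ± 1.13 (limma adjusted p = 0.785), and could not be tested without fish 34 or 35. In Cd fins 0 of 100 members differed from control fins and 0% of 951 contigs passed, with 2 members and 75 contigs at an unadjusted p under 0.05. The median member difference was -0.68, against 0.00 over all contigs. contig_27242 held 0.88, 5.24, 0.88, 5.38 and 1.91 in control fins and -1.98, 0.41 and 0.64 in Cd fins, a difference of -3.16 ± 1.13 (limma adjusted p = 0.496). contig_9182 held 0.55, 0.97, 0.44 and 4.06 against -1.50, 0.31, -1.29, -0.08 and 0.87, a difference of -1.85 ± 0.76 (limma adjusted p = 0.592), and of -0.99 without control fish 10.

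Against Certes fins, the Gironde fins had 22 of 93 members lower and 4 higher, beside 7.29% of 850 contigs lower and 10.8% higher. contig_7695 held 0.25, 0.76, 0.87, 0.88 and 0.91 in Certes fins, above its 4 Gironde values. The difference was -5.09 ± 1.15 (SE, limma adjusted p = 0.0020), and -2.61 without eel A305. In a fit of only the 10 arrays compared it no longer passed (limma adjusted p = 0.071). contig_1177 held 0.64, 0.19, -0.27, -0.32 and -0.98 in Gironde fins and differed by -3.92 ± 1.15 (limma adjusted p = 0.021), a call that ended without Certes eel A203, at -3.07. contig_9484 was higher by 3.87 ± 1.35 (limma adjusted p = 0.043) and contig_4248 by 2.66 ± 0.63 (limma adjusted p = 0.0029). The second was at 1.70 without eel A306, at 1.50 after recentring and at -0.016 with the sign of A306 turned, and its call ended in a fit of only the arrays compared (limma adjusted p = 0.055). The call of contig_9484 ended on recentring, at 2.75, with the sign of A306 turned, at 3.87, without Certes eel A203, A207 or A210, at 3.84, 3.58 and 3.77, and without Gironde eel A302 or A306, at 3.87 each, and it could not be tested without A310 or A315. The count of 26 was 17 without Certes eel A207 or A210 or Gironde eel A306, and 13 without Gironde eel A302 or A310. Recentring gave 1 member higher and 47 lower, and 49 contigs higher and 161 lower in place of 92 and 62.

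The Garonne fins had 2 of 62 members higher than Certes fins and 0 lower, beside 3.77% of 530 contigs higher and 2.08% lower. contig_17000 held 2.59, 2.37, 4.63, 3.77 and 5.66 in Garonne fins and 0.71, 0.70, 0.21, 0.05 and 0.29 in Certes fins, which did not overlap. The difference was 3.41 ± 0.59 (SE, limma adjusted p = 0.00075), and it passed in all 15 other fits, at 2.79 to 3.77. contig_18826 held 1.54, 1.07, 0.62, 1.65 and 1.52 in Certes fins, below its 2 Garonne values, a difference of 4.15 ± 0.77 (limma adjusted p = 0.0018). The count of 2 was 1 without eel A359 and 4 without eel A362. The members' median lay 0.35 above that of all contigs as deposited and 0.24 below it after quantile normalization. Over all contigs 9 were then higher and 2 lower, against 20 and 11.

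In a joint fit of fin and liver arrays from control and Cd eels, 16 of 100 members were lower in Cd fins than in Cd livers and 1 was higher, beside 8.21% of 926 contigs lower and 5.18% higher. Fin and liver arrays shared fish numbers, which this fit did not use, and a fit with the number as a block called fewer members. All 16 members lower in Cd fins had L above F, a side with 49 members tested. L includes the Cd livers compared here, so this split was largely set by the rule's own values and is a description only. contig_14469 held -2.60, 0.16, 0.26, -0.31 and 0.20 in Cd fins and 1.94, 2.31, 1.64, 1.45 and 1.37 in Cd livers, a difference of -2.20 ± 0.48 (SE, limma adjusted p = 0.0065). contig_34654 differed by -2.14 ± 0.54 (limma adjusted p = 0.015), with fin values from -0.82 to 0.46 below liver values from 0.95 to 3.67. contig_8521 held 5.31, 1.80, 1.74, 2.43 and 1.30 in Cd fins, above liver values from -0.30 to 0.80, a difference of 2.02 ± 0.60 (limma adjusted p = 0.033). It was at 1.32 without the fin array of fish 45, and its call ended in a fit of the 10 Cd arrays alone (2.02), without fin fish 49 (2.04) and without any 1 Cd liver, at 1.82 to 2.10. With the fish number as a replicate block the call of contig_8521 also ended, at 2.02 (limma adjusted p = 0.0996). The count of 17 was 31 without the fin array of fish 45, 6 without that of fish 49, and 11, 9, 7 and 6 without the livers of fish 45, 47, 48 and 49. Recentring gave 4 members higher and 9 lower, and 80 contigs higher and 49 lower in place of 48 and 76.

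The range of group means over the 9 groups differed between members, and whether the members share a profile was not tested. In the 55 members with at least 2 values in every group, the range of the 9 group means lay between 1.26 and 5.82 (median 2.66), and 14 of the 55 had a mean above 0 in all 9 groups. The widest ranges were those of contig_18826, set by its Garonne mean, and contig_7695 (5.77), set by its Gironde mean. The narrowest were those of contig_39060 (1.26) and contig_21579 (1.29). contig_39060 held 1.26, 1.39, 1.11, 1.02 and 1.18 in the Garonne fins, a narrow spread, and -2.37, 0.47 and 3.71 in the Gironde fins, a wide one. A narrow range of group means therefore did not mean narrow values within a group. A member's share of values above 0 ran from 45.8% to 100%, with a median of 82.2%. This share and the count of 14 include the arrays that chose the members, so values above 0 are partly built in.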

How the data were processed

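Caudal fins and livers were measured on 2-colour arrays. The values analysed were the log2 ratios that the authors deposited for 992 contigs, which have a median of 0 on each array. The sources used here do not give the background correction, spot filtering or averaging. A deposited scanner table held 180 columns numbered by slide with no sample name, and none was used. Of all values 21.1% were missing and stayed so.

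limma 3.58.1 in R 4.3.3 (lmFit, eBayes) estimated a mean per group, from the 35 fin arrays, the 10 livers, or jointly the 20 arrays of Control and Cd eels. Tests were two-sided with Benjamini-Hochberg adjustment over all contigs with at least 2 values in each group, and a threshold of 0.05. SE values come from the fit and SD values from the arrays of a group. A fold change is not given, since a level is a ratio to the reference. The number of arrays limits the precision. The labels give no cultures or ponds, so p-values measure the spread between these fish, pooled per contig over all groups of a fit. They do not measure the spread of 1 group. In Gironde fins contig_7695 had an SD of 4.98 over 4 arrays and an SE of 0.86.

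Groups and fish numbers came from the sample titles. Contigs named are the 6 members with the highest mean of F and L among those with at least 40 values, the 3 nearest the threshold on each side, at most 2 higher and 2 lower per comparison with the largest differences among members past the threshold (where none passed, the 2 with the smallest p), and the 2 with the widest and the 2 with the narrowest range of group means. The members, the tests and this rule were chosen with earlier results of these data known. Alternatives were stricter minimums, recentring, quantile normalization, array weights, fewer arrays in the fit, turned signs and left-out arrays. The fits of 1 group's arrays alone were added after the data were seen. The fitting was tested on simulated data.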

Additional observations from a re-analysis of the deposited data

Results flagged for a closer look

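In groups of 4 or 5 arrays, 108 group values were tested for a lone array far from the others: the members' median in the 9 groups, and the log2 ratios of the 12 members named by level, threshold or spread. Chance would give about 1 in 20, or 5.4, among independent values. These values share arrays, and some of the members were picked for a wide range, so the 21 found are listed as values and not set against that number. For the members' median these were Gironde eel A315, at 0.65 above the other 4 Gironde arrays, and Cd fin fish 45, at -0.25 below the other 4 Cd fins.

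Of the 19 single values, 7 came from the fin array of Cd fish 45. It was the lowest of its group for contig_16088 (-1.21), contig_15477 (-0.83), contig_21579 (-1.28), contig_7695 (-1.91) and contig_39060 (-0.79), and the highest for contig_18978 (6.95) and contig_25732 (4.97). In the 300 ng/g group fish 33 was highest for contig_16088 (9.21), contig_9484 (10.25) and contig_25732 (1.98), and fish 31 for contig_12603 (6.87). In the 50 ng/g group fish 28 was highest for contig_9484 (3.56) and contig_39060 (3.07). Control fin fish 9 was highest for contig_17922 (4.06) and contig_39060 (1.63). Gironde eel A315 was highest for contig_15477 (4.25) and eel A305 lowest for contig_7695 (-11.81). The liver of Cd fish 47 was highest for contig_15477 (0.94), and Certes eel A201 lowest for contig_7695 (0.25).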

How the results depend on the processing

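Of 233 alternatives to 16 counts, 169 stayed within 1.5 times the count reported and 64 did not. The cause was not tested. A count of 0 that stayed at 0 was taken as within this range. Only the totals were compared, not the direction of the calls or which members passed. Counts of members called are given in the order Gironde, PCB 50 ng/g, PCB 300 ng/g, Cd, where a setting moved them. Against the reference, a fit of the group's own arrays, added after the data were seen, gave 0, 0, 15 and 0 (from 8, 1, 41 and 14), and the Garonne count was within range. Array weights gave 0 at 50 ng/g, 65 at 300 ng/g and 31 for Cd. Recentring gave 53 for Garonne (from 35) and 0 at 50 ng/g. Quantile normalization gave 23 for Garonne, 15 for Gironde and 2 at 50 ng/g, a minimum of 4 values gave 4 for Gironde, and the sign of fish 26 turned gave 0 at 50 ng/g. Leaving out 1 array gave 6 to 13 for Cd, 23 to 33 at 300 ng/g and 0 to 4 at 50 ng/g.

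For Gironde minus Garonne (21) and 300 minus 50 ng/g (18), a minimum of 4 values gave 8 and 11. A fit of the compared arrays alone gave 3 for the doses, and leaving out 1 array 10 to 20. For Gironde minus Certes (26) a minimum of 4 gave 15, recentring 48, array weights 40, the sign of A306 turned 12, and left-out arrays 13 to 26. For Garonne minus Certes (2) a minimum of 4 gave 1, array weights 11, the compared arrays 6, and left-out arrays 1 to 4. For 50 ng/g minus control (7) a minimum of 4 gave 4, recentring 4, quantile normalization 14, and left-out arrays 3 to 7. For 300 ng/g minus control (0) array weights gave 2 and left-out arrays 0 to 1, and for Control minus Certes (0) array weights gave 1. The Cd counts of 0 against control fins and livers stayed 0 in all fits run.

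For Cd fins minus Cd livers (17), quantile normalization gave 29, array weights 49, the compared arrays 7, and left-out arrays 6 to 31. With the fish number as a replicate block it was 3. The labels do not say whether a shared number means the same animal. Of 10 same-number pairs of fin and liver the correlations of deviations ran from -0.187 to 0.167, and 1 array correlated best with its own number. Since the tissues differ, such correlations cannot decide whether fin and liver came from the same fish.

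The sign of A306 turned reversed contig_4248 against the reference (-0.22), Garonne (-0.62) and Certes (-0.016).

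The number of members was 175 with a threshold of 0.5 and 60 with 1. Of the other rules medians gave 103, at least 8 values 83, bounds of -1 and 1 67, recentring 74 and quantile normalization 119, and left-out arrays 97 to 106.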
